A study of Mus musculus with 18 samples.

Results

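The ligands, receptors and feedback inhibitor of the epidermal growth factor (EGF) family were followed in O9-1 cells, a mouse neural crest (NC) cell line derived from the embryonic head, during osteoblast differentiation. The family was taken as 10 genes of the 55335 in the count files, chosen by name because Areg rose strongly with FGF2. These are the ligands Areg, Ereg, Hbegf, Tgfa, Btc and Epgn, the receptors Egfr, Erbb2 and Erbb3, and the inhibitor Errfi1. The large difference of Areg between the FGF2 and vehicle groups was thus the reason for the choice and is described here without a test.

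EGF family ligands are made as membrane-anchored precursors, and proteases of the ADAM family cut them to release the soluble growth factor. The ligands bind ErbB receptors, which pair with each other and activate the Ras-ERK, PI3K-AKT and STAT pathways. Erbb2 has no known ligand of its own and acts as a partner, Erbb3 binds neuregulins and has little kinase activity, and Errfi1 (Mig6) binds the active kinase domain and shuts it down. EGF signalling is known to keep osteoblast precursors dividing and to hold back their maturation.

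Bulk poly(A) RNA-seq was available from 18 libraries in 6 groups of 3. All cells were O9-1 cells with a wild-type genotype on the label, and were taken 2.5 days (d2.5) or 5 days (d5) after osteoblast differentiation was started. Ctrl+vehicle cells received a scramble siRNA and no FGF2, Ctrl+FGF2 cells the scramble siRNA and FGF2, and Y/T dKD+FGF2 cells siRNA pools against Yap and Taz together with FGF2. No group had the knockdown without FGF2, so the knockdown was measured only in the presence of FGF2. The model is a single cell line with a transient knockdown, and its wild-type label refers to the DNA. The labels give day as the batch, so that day and batch cannot be told apart. Levels are set side by side between days as ratios with counting intervals and no test, and only the difference of the FGF2 or knockdown effect between days is tested. Nothing states that the replicates were separate cultures, and p-values then measure only the spread between these libraries.

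Gene counts per library ranged from 10377151 to 14698525. In the knockdown libraries the RNA of Yap1 was left at 51.5% of Ctrl+FGF2 on d2.5 and 46.0% on d5, and that of Wwtr1, which encodes Taz, at 60.8% and 57.5%. Of 11 markers of neural crest and mesenchyme, 10 had a mean of at least 1 CPM (gene counts scaled to a library of 1000000) in every group, while Sox10 had no count in any library. The 8 epithelial markers summed to between 0.201 and 5.68 CPM per library, with Esrp1 at 0 counts. Among markers of endothelium, blood, glia and neurons, Cdh5, Lyz2, Hbb-bt and Elavl3 were at 0 counts, but others were detected. Pecam1 (endothelium) had 374 reads over all libraries, Cd68 (blood) 413 and Tubb3 (neurons) 1722. The 4 glia and neuron markers had a median sum on d2.5 of 23.7 CPM with vehicle. It was 12.6 CPM with FGF2 alone and 7.37 CPM when the knockdown was added. The d5 values, in the same order, were 3.59, 2.43 and 1.53 CPM. The summed level of the 6 osteoblast markers differed between groups, with medians on d2.5 of 13257 CPM in Ctrl+vehicle and, with FGF2, 2362 CPM without and 2205 CPM with the knockdown. On d5 these medians were 32881, 17401 and 21946 CPM. Most of each sum was Col1a1, with group means of 12636, 2203 and 2009 CPM on d2.5 and 31912, 16646 and 21837 CPM on d5. Between Ctrl+vehicle and Ctrl+FGF2 on d5, Runx2 (137 to 179 CPM) and Sp7 (35.8 to 44.5 CPM) were higher with FGF2. Alpl, Ibsp and Bglap were lower, as Col1a1 was. The part of these differences between groups in the results on the EGF family was not tested, and in bulk RNA fewer cells of a type and less RNA per cell cannot be told apart.

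Levels are CPM with TMM scaling over all 18 libraries unless stated per length, and errors are SD with n = 3. Fold ratios are of summed and scaled counts, with 95% intervals that cover counting error only. The fitted change is the log2 fold change with its standard error (SE), and the adjusted p comes from edgeR's quasi-likelihood test over all genes, where an adjusted p under 0.05 is called. The low-count filter was passed by 8 of the 10 genes on d2.5 (all but Epgn and Egfr) and by 6 on d5 (all but Areg, Btc, Epgn and Erbb3), with 5 passing on both days. On d2.5 Areg and Btc passed only through the libraries with FGF2, where they were high. The FGF2 and knockdown comparisons of a day share the 3 Ctrl+FGF2 libraries.

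**Figure D1:**
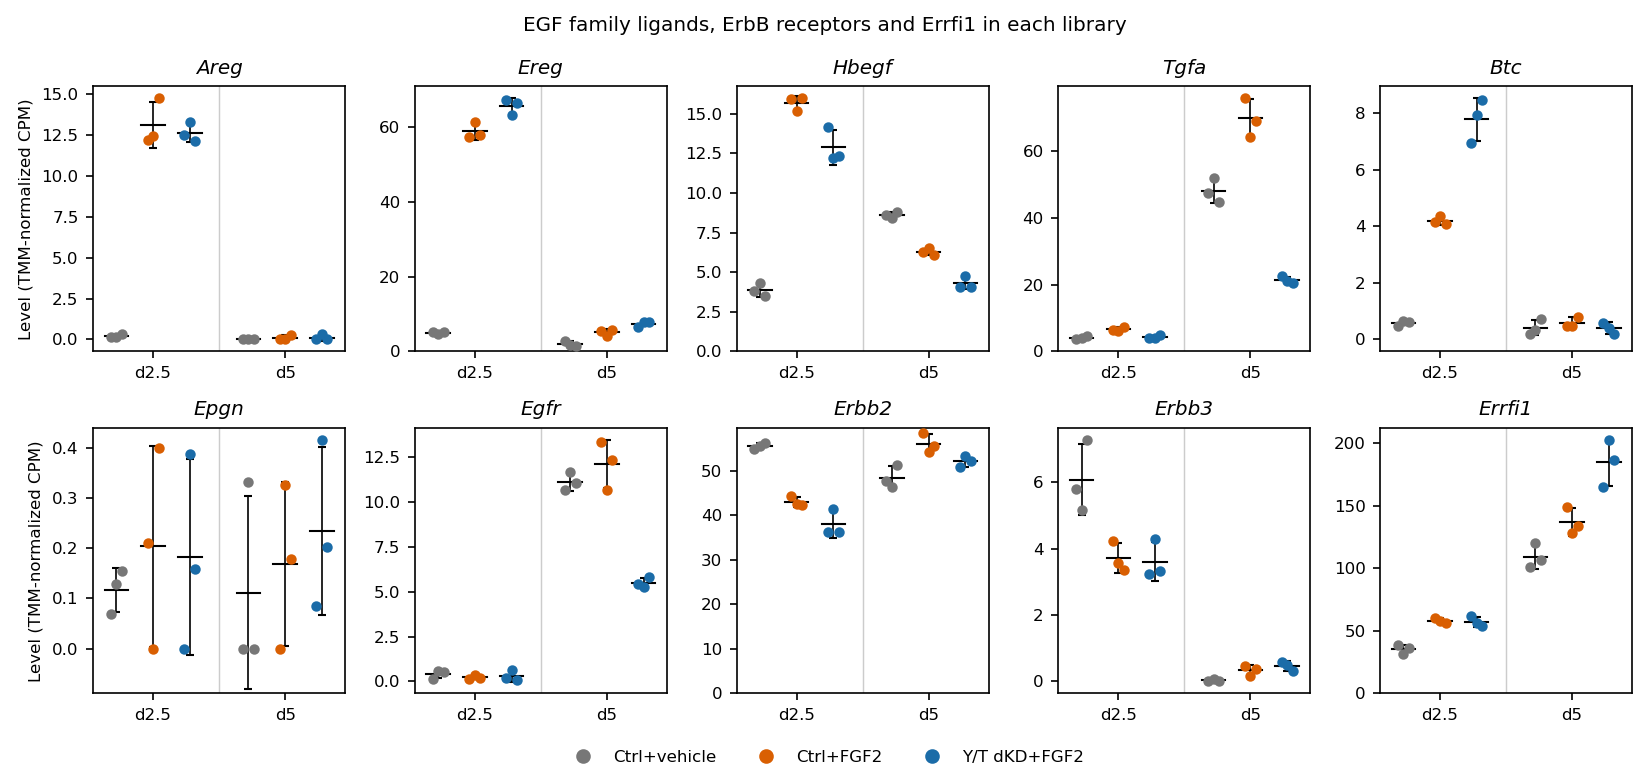
Level in TMM-normalized CPM (y axis, linear and separate for each gene) of the 10 genes in each of the 18 libraries, by day (x axis) and group (colour). Points are libraries, horizontal lines group means and bars SD (n = 3). Areg, Ereg and Btc are high only in the libraries with FGF2 on d2.5, while Tgfa, Egfr and Errfi1 are higher on d5, and Tgfa and Egfr on d5 are lowest in the knockdown libraries.

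On d2.5 FGF2 came with more ligand RNA and less receptor RNA. The ligands Ereg, Hbegf and Tgfa and the inhibitor Errfi1 rose, and the receptors Erbb2 and Erbb3 fell. Outside Areg, 7 genes were tested, of which 5 were called higher (these 4 and Btc) and 2 lower. Areg chose the family, and both Areg and Btc entered the fit only through the libraries in which they were high, so their differences are given as description. With at least 10 counts in every library, which leaves out Btc, 4 genes were called higher. Over all 13677 genes tested, 33.5% were called higher and 34.1% lower, so most of the genes tested were called in this comparison.

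Amphiregulin (Areg), a low-affinity EGFR ligand, had levels of 0.138, 0.129 and 0.309 CPM in the Ctrl+vehicle libraries, which rest on 2, 2 and 4 reads. In Ctrl+FGF2 it stood at 12.2, 12.4 and 14.8 CPM, and in Y/T dKD+FGF2 at 12.5, 13.3 and 12.2 CPM. Vehicle and FGF2 libraries did not overlap, and the ratio of Ctrl+FGF2 to Ctrl+vehicle was 70.7 (35.6 to 164). The FGF2 libraries with and without the knockdown overlapped, with a log2 difference of -0.06 (SE 0.10, adjusted p = 0.695) and a ratio of 0.961 (0.849 to 1.09).

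Epiregulin (Ereg), a ligand of EGFR and ErbB4 encoded next to Areg, rose from 5.18, 4.78 and 5.18 CPM with vehicle to 57.3, 61.5 and 58.0 CPM with FGF2. This was an 11.7-fold difference (10.2 to 13.5), and the log2 fold change was 3.53 (SE 0.08, adjusted p = 8.7e-27). Betacellulin (Btc), a ligand of EGFR and ErbB4, stood at 0.483, 0.645 and 0.618 CPM with vehicle (7, 10 and 8 reads) and at 4.16, 4.37 and 4.08 CPM with FGF2, a ratio of 7.20 (4.73 to 11.4). Hbegf, which encodes the heparin-binding ligand, rose from 3.80, 4.32 and 3.48 CPM to 15.9, 15.2 and 16 CPM, a log2 fold change of 2.0 (SE 0.12, adjusted p = 6.1e-16). For Ereg, Btc and Hbegf every FGF2 library was above every vehicle library. This is a description only, as 33.5% of all genes were called higher in this comparison. Tgfa, the ligand that binds EGFR much as EGF does, rose less, from 3.59, 3.94 and 4.71 CPM to 6.41, 5.97 and 7.29 CPM (log2 fold change 0.68, SE 0.15, adjusted p = 1.3e-04). Epiregulin's relative epigen (Epgn) had 0 to 6 reads in each d2.5 library, and a difference was not detectable at this depth.

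Erbb2 was the receptor with most RNA on d2.5. Its level was 54.9, 55.5 and 56.3 CPM with vehicle and fell to 44.4, 42.6 and 42.2 CPM with FGF2 (log2 fold change -0.38, SE 0.05, adjusted p = 2.9e-07). Erbb3 fell from 5.80, 5.16 and 7.26 CPM to 4.23, 3.57 and 3.34 CPM (log2 fold change -0.71, SE 0.16, adjusted p = 2.5e-04). The vehicle and FGF2 libraries did not overlap for Erbb2 or Erbb3, a description given beside 34.1% of all genes called lower. Egfr, the receptor of Areg, was near the limit of detection, with 18 reads over the 3 vehicle libraries, 10 over Ctrl+FGF2 and 11 over Y/T dKD+FGF2. Its level in these 9 libraries was between 0.0790 and 0.622 CPM, at which no difference could be seen (Ctrl+FGF2 to Ctrl+vehicle ratio 0.556, 0.229 to 1.27). Errfi1 rose from 38.7, 31.3 and 36.1 CPM to 60.2, 57.7 and 56.5 CPM (log2 fold change 0.71, SE 0.06, adjusted p = 1.4e-11).

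The knockdown with FGF2 on d2.5 changed the family less. Of 8 genes tested, 2 were called higher (Ereg and Btc), 3 lower (Hbegf, Tgfa and Erbb2) and 3 not (Areg, Erbb3 and Errfi1), beside 10.8% of all genes called higher and 13.6% lower. Btc rose from 4.16, 4.37 and 4.08 CPM in Ctrl+FGF2 to 6.96, 7.93 and 8.45 CPM (log2 fold change 0.88, SE 0.14, adjusted p = 1.8e-05). Tgfa fell to 4.06, 3.97 and 4.82 CPM (log2 fold change -0.63, SE 0.15, adjusted p = 0.0021), which overlaps the vehicle libraries. Between Y/T dKD+FGF2 and Ctrl+vehicle, the Tgfa difference was 0.06 on the log2 scale (SE 0.16, adjusted p = 0.766).

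The other 3 calls were small. Ereg stood at 67.2, 63.3 and 66.3 CPM in the knockdown (log2 fold change 0.15, SE 0.05, adjusted p = 0.025), Hbegf at 14.2, 12.2 and 12.3 CPM (log2 fold change -0.30, SE 0.09, adjusted p = 0.019) and Erbb2 at 36.2, 41.5 and 36.3 CPM (log2 fold change -0.19, SE 0.06, adjusted p = 0.018). With DESeq2 these 3 calls were lost (adjusted p of 0.0825, 0.104 and 0.067), and that of Ereg also with all 18 libraries in 1 fit (adjusted p = 0.0602). Leaving out single libraries ended the call of Ereg (replicate 1 or 3 of either group, adjusted p of 0.0917 to 0.113), Hbegf (replicate 1 or 3 of Ctrl+FGF2, 2 or 3 of the knockdown, 0.0613 to 0.0853) and Erbb2 (replicate 1 of Ctrl+FGF2, 1 or 3 of the knockdown, 0.085 to 0.107). Erbb3 and Errfi1 differed from Ctrl+FGF2 by -0.04 (adjusted p = 0.894) and -0.03 (adjusted p = 0.773) on the log2 scale. Against vehicle, the Y/T dKD+FGF2 libraries had 4 of 7 genes called higher (Ereg, Hbegf, Btc and Errfi1) and 2 lower (Erbb2 and Erbb3), beside 34.1% and 35.7% of all genes. The ligand differences there were 3.68 for Ereg and 1.71 for Hbegf on the log2 scale. Btc, in the fit only through the FGF2 groups, had 293 reads here against 25 with vehicle.

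**Figure D2:**
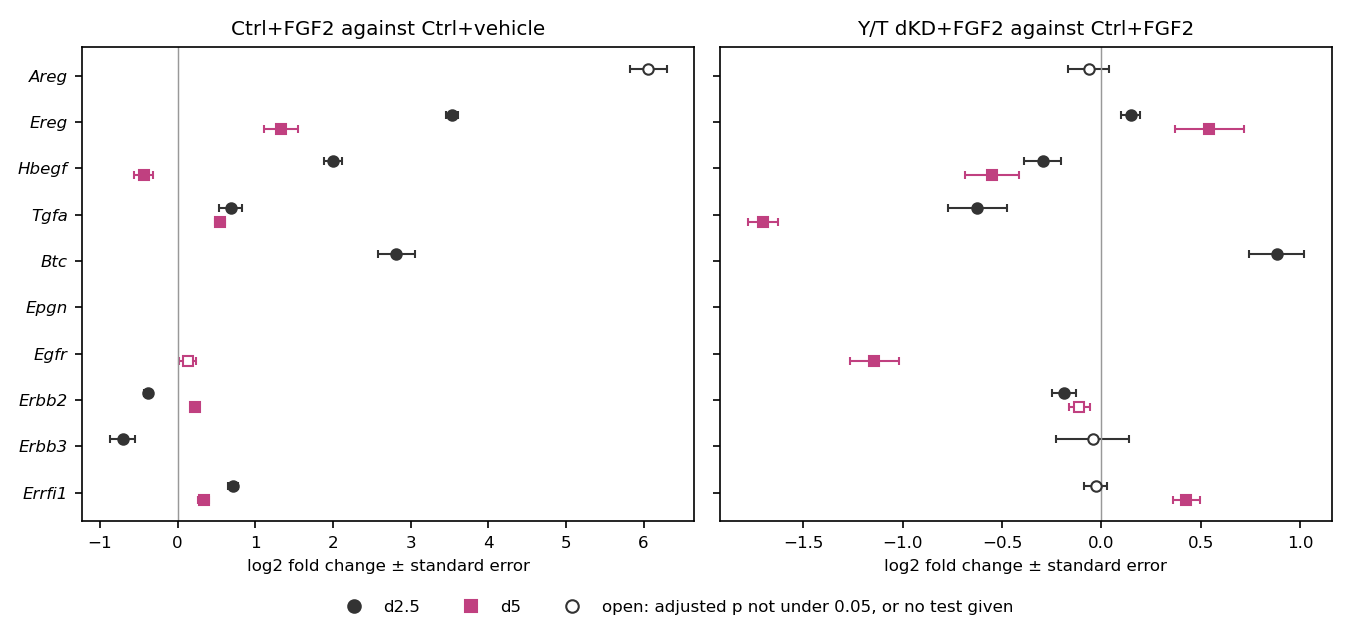
log2 fold change with standard error (x axis) of each gene (y axis) for Ctrl+FGF2 against Ctrl+vehicle (left) and Y/T dKD+FGF2 against Ctrl+FGF2 (right), with circles for d2.5 and squares for d5 and a separate scale in each panel. Filled symbols are called at an adjusted p under 0.05, open symbols are not called or, for Areg on the left, given without a test, and a gene that did not pass the filter has no symbol. Btc on the left passed only through its FGF2 libraries. Ligands span 0.68 to 6.06 with FGF2 on d2.5, and Tgfa and Egfr are the genes farthest below 0 in the knockdown on d5.

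On d5, which is also a separate labelled batch, the ligand RNA was made up differently than on d2.5. Areg had no read in the 3 Ctrl+vehicle libraries, 3 reads in 1 of the 3 Ctrl+FGF2 libraries and 4 reads in 1 of the 3 Y/T dKD+FGF2 libraries, where a count of 0 over a group allows up to 3 counts. Between d2.5 and d5 the Areg level in Ctrl+FGF2 was 151-fold lower (51.3 to 732). Btc stood at 0.201 to 0.808 CPM in the 9 d5 libraries, with overlapping groups, and was 7.20-fold lower in Ctrl+FGF2 on d5 than on d2.5 (4.52 to 12.1). Tgfa went the other way, being 11.9-fold higher on d5 in Ctrl+vehicle (10.1 to 14.0) and 10.6-fold higher in Ctrl+FGF2 (9.33 to 12.0).

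With FGF2 on d5, 6 genes were tested, of which 4 were called higher (Ereg, Tgfa, Erbb2 and Errfi1) and 1 lower (Hbegf), beside 23.5% and 23.7% of all genes. Tgfa rose from 47.3, 51.9 and 44.7 CPM to 75.7, 64.2 and 69.0 CPM (log2 fold change 0.55, SE 0.07, adjusted p = 2.9e-06). Ereg rose from 2.92, 1.75 and 1.53 CPM to 5.33, 4.23 and 5.75 CPM (log2 fold change 1.33, SE 0.22, adjusted p = 8.8e-05). Both ligands were higher in every FGF2 library than in every vehicle library. Hbegf fell from 8.65, 8.42 and 8.80 CPM to 6.25, 6.51 and 6.11 CPM, where on d2.5 it had risen (log2 fold change -0.44, SE 0.12, adjusted p = 0.0061). DESeq2 did not call this fall (adjusted p = 0.0531), although the libraries did not overlap.

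Receptor levels on d5 included Egfr, at 10.7, 11.7 and 11 CPM in Ctrl+vehicle and 13.3, 10.7 and 12.3 CPM in Ctrl+FGF2. These groups overlapped (log2 difference 0.13, SE 0.11, adjusted p = 0.362). Compared with d2.5, the Egfr level was 26.6-fold higher in Ctrl+vehicle (16.6 to 45.4) and 51.7-fold higher in Ctrl+FGF2 (27.8 to 109). Erbb2 rose from 47.8, 46.3 and 51.3 CPM to 58.5, 54.3 and 55.6 CPM (log2 fold change 0.22, SE 0.05, adjusted p = 0.0025), and Errfi1 from 101, 120 and 106 CPM to 149, 128 and 134 CPM (log2 fold change 0.34, SE 0.07, adjusted p = 9.7e-04). Erbb3 had 1 read over the 3 vehicle libraries, 11 over Ctrl+FGF2 and 16 over Y/T dKD+FGF2. In Ctrl+vehicle, Erbb3 went from 258 reads on d2.5 to that single read, a 199-fold difference whose counting interval runs from 35.4 to 7886.

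The knockdown on d5 lowered Tgfa and its receptor. Of 6 genes tested, 3 were called lower (Tgfa, Egfr and Hbegf) and 2 higher (Ereg and Errfi1), while Erbb2 was not called, beside 16.1% of all genes called lower and 15.6% higher. Tgfa fell from 75.7, 64.2 and 69.0 CPM to 22.5, 21.2 and 20.5 CPM, a 3.24-fold difference (2.98 to 3.53) and a log2 fold change of -1.71 (SE 0.08, adjusted p = 2.4e-11). Egfr fell from 13.3, 10.7 and 12.3 CPM to 5.44, 5.23 and 5.81 CPM (log2 fold change -1.14, SE 0.12, adjusted p = 1.4e-06). For both genes the knockdown libraries were also below every Ctrl+vehicle library, with log2 fold changes against vehicle of -1.16 for Tgfa and -1.02 for Egfr. Hbegf fell further, to 4.08, 4.74 and 4.07 CPM (log2 fold change -0.55, SE 0.14, adjusted p = 0.0048).

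Errfi1 and Ereg moved up. Errfi1 rose from 149, 128 and 134 CPM to 165, 203 and 186 CPM (log2 fold change 0.43, SE 0.07, adjusted p = 1.3e-04), so that on d5 the inhibitor was highest in the group where Tgfa and Egfr were lowest. Ereg rose from 5.33, 4.23 and 5.75 CPM to 6.55, 7.98 and 7.84 CPM (log2 fold change 0.54, SE 0.17, adjusted p = 0.022), a call that was lost with DESeq2 (adjusted p = 0.0769) and without replicate 2 of Ctrl+FGF2 or replicate 2 or 3 of the knockdown (adjusted p of 0.0699 to 0.0965). Erbb2 stood at 50.9, 53.3 and 52.1 CPM (log2 difference -0.11, adjusted p = 0.130). Against Ctrl+vehicle, Y/T dKD+FGF2 had 2 of 6 genes called higher (Ereg and Errfi1) and 3 lower (Hbegf, Tgfa and Egfr), beside 20.7% and 21.1% of all genes.

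The difference of the effects between days was tested in 1 fit of all 18 libraries, in which 60.9% of 14198 genes had a different FGF2 effect and 20.9% a different knockdown effect. Of 8 genes tested, the FGF2 effect was called different in 6, Btc and Erbb3 among them. It was smaller or opposite on d5 for Hbegf (difference of log2 fold changes -2.46, SE 0.16, adjusted p = 4.8e-14), Ereg (-2.22, SE 0.25, adjusted p = 7.2e-09) and Errfi1 (-0.40, SE 0.11, adjusted p = 0.0025). It was higher on d5 for Erbb2 (0.58, SE 0.08, adjusted p = 1.5e-07). The Erbb3 value of 3.74 (SE 0.99) is a description only. Erbb3 is in the fit through its d2.5 libraries and had 1 read in the d5 vehicle group. The Btc value of -2.37 is a description only, since Btc is in the fit through its high d2.5 libraries with FGF2 and its d5 groups hold 14 to 20 reads. For Tgfa the difference was -0.16 (SE 0.16, adjusted p = 0.401), and for Egfr 0.93 (SE 0.60, adjusted p = 0.182). The knockdown effect on Tgfa was stronger on d5 (-1.08, SE 0.17, adjusted p = 3.1e-05), and that on Errfi1 higher (0.45, SE 0.10, adjusted p = 0.0019). The difference for Btc (-1.37, SE 0.49, adjusted p = 0.047) was lost with DESeq2 (adjusted p = 0.0782), with no low-count filter (0.0669) and without 1 library in 10 of 18 fits. These left out replicate 3 of Ctrl+vehicle, any of Ctrl+FGF2 or replicate 2 or 3 of the knockdown on d2.5, or replicate 2 or 3 of either FGF2 group on d5 (adjusted p of 0.053 to 0.221). The knockdown effects on the other genes were not shown to differ between days, at 0.46 for Areg (adjusted p = 0.839), 0.39 for Ereg (0.0707), -0.26 for Hbegf (0.321), -1.45 for Egfr (0.148), 0.07 for Erbb2 (0.573) and 0.59 for Erbb3 (0.531). Areg and Btc are in this fit through their high d2.5 libraries with FGF2, Erbb3 through its d2.5 libraries and Egfr through its d5 libraries. The d5 reads in Ctrl+FGF2 and the knockdown were 3 and 4 for Areg, 20 and 14 for Btc and 11 and 16 for Erbb3. Those of Egfr on d2.5 were 10 and 11. The knockdown differences of these genes are thus uncertain. Leaving out 1 library brought a call for Ereg (replicate 1 of d5 Ctrl+vehicle, 3 of d5 Ctrl+FGF2 or 1 of the d5 knockdown, adjusted p of 0.0424 to 0.0495) and, for the FGF2 effect, for Egfr (1.35 without replicate 1 of d2.5 Ctrl+vehicle, adjusted p = 0.0462).

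To compare ligands with each other, levels were divided by exon length (CPM per kb). The 6 ligands together summed to 3.0 ± 0.164 CPM per kb in Ctrl+vehicle on d2.5, 30.4 ± 1.28 with FGF2 and 31.5 ± 0.185 with FGF2 and the knockdown. Part of this rise was fixed by the choice of the family, since the sum includes Areg. Between Ctrl+vehicle and Ctrl+FGF2 on d2.5, Areg went from 0.158 to 10.8 CPM per kb and Ereg from 1.22 to 14.3. On d5 the sums were 9.83 ± 0.593, 13.6 ± 0.917 and 6.30 ± 0.409. The FGF2 libraries of d2.5 held mostly Ereg (47.0% of the ligand sum in Ctrl+FGF2) and Areg (35.5%), with Hbegf at 10.7% and Tgfa at 3.32%. On d5 Tgfa made up 75.2% with vehicle, 79.1% with FGF2 and 52.4% with FGF2 and the knockdown, where Ereg had 28.7%. Cells with FGF2 thus had mostly Ereg and Areg RNA on d2.5 and mostly Tgfa RNA on d5.

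**Figure D3:**
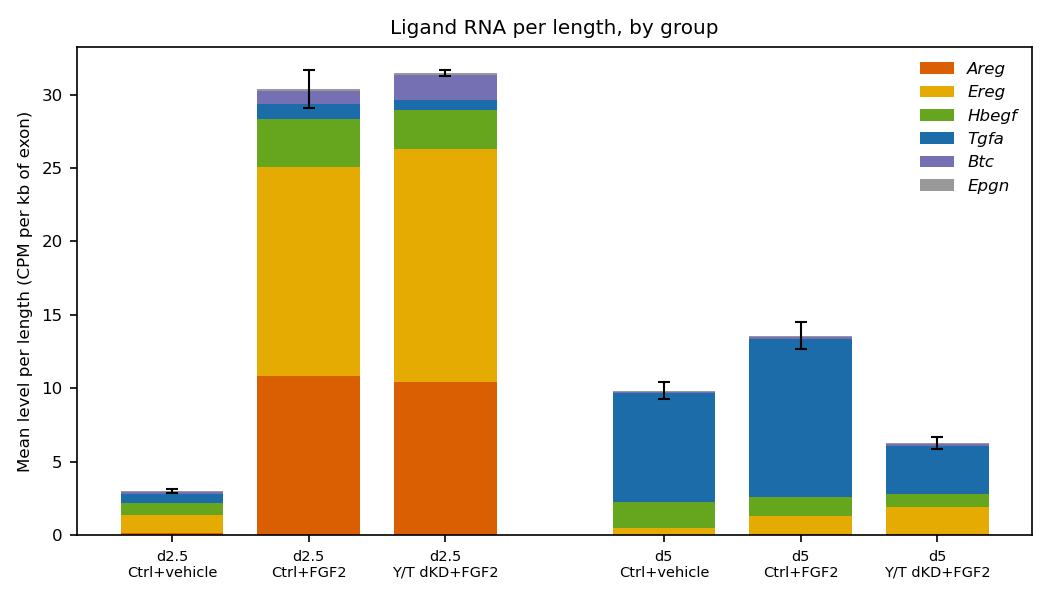
Stacked group means (n = 3) of the 6 ligands in CPM per kb of exon (y axis, from 0) for the 6 groups (x axis), with the SD of the sum as error bars. The d2.5 groups with FGF2 reach 30.4 and 31.5 and are mostly Ereg and Areg, while the d5 bars are mostly Tgfa and the knockdown is lowest at 6.30. The sums include Areg, whose rise with FGF2 was the reason for choosing the family.

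The order per length on d2.5 with vehicle was Erbb2 (10.7 ± 0.141 CPM per kb) and Errfi1 (9.87 ± 1.04), which overlapped, then Ereg (1.22 ± 0.0562), Erbb3 (1.01 ± 0.179), Hbegf (0.800 ± 0.0884) and Tgfa (0.629 ± 0.0887), each overlapping its neighbour, then Areg (0.158 ± 0.0835) and Btc (0.129 ± 0.0192). With FGF2 the order was Errfi1 (16.2 ± 0.521), Ereg (14.3 ± 0.550), Areg (10.8 ± 1.17) and Erbb2 (8.27 ± 0.220), without overlap between neighbours. Ereg and Areg thus passed Erbb2. In Y/T dKD+FGF2 the first 4 stood in the same order, with Errfi1 (16 ± 1.11) and Ereg (15.9 ± 0.499) overlapping. On d5 Errfi1 led in each group, at 30.5 ± 2.70, 38.2 ± 3.10 and 51.6 ± 5.26 CPM per kb. Erbb2 followed, at 9.30 ± 0.487, 10.8 ± 0.407 and 10 ± 0.237, then Tgfa at 7.39 ± 0.562, 10.7 ± 0.889 and 3.29 ± 0.155. Tgfa overlapped Erbb2 in Ctrl+FGF2 and lay below it without overlap in the other two groups. The Egfr level per length was 0.982 ± 0.0450, 1.07 ± 0.118 and 0.485 ± 0.0255, and in Ctrl+FGF2 Hbegf, Ereg and Egfr overlapped in that order.

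The 4 ligand genes Epgn, Ereg, Areg and Btc lie in a row on chromosome 5 (GRCm38), Epgn at chr5:91027464-91035215, Ereg at chr5:91074622-91093646 and Areg at chr5:91139599-91148432 on the plus strand and Btc at chr5:91357261-91402994 on the minus strand. The stretch is 375.5 kb long, and with 200 kb on either side it holds 14 annotated genes, of which 6 were tested. With FGF2 on d2.5, the antisense gene Gm19610 (chr5:91051871-91074773, minus strand) rose, as Ereg did (log2 fold change 2.78, SE 0.33, adjusted p = 9.0e-09). It overlaps the start of Ereg on the other strand and had 277 reads in all libraries together, against 5698 for Ereg. In 96.0% to 96.6% of stranded counts the reverse strand was read, so that leakage from Ereg to Gm19610 is possible where they overlap and was not tested. Mthfd2l, an enzyme of mitochondrial folate metabolism on the other side of Epgn, rose by 0.37 on the log2 scale (SE 0.08, adjusted p = 9.3e-05). Cxcl1, a neutrophil chemokine farther upstream, fell (log2 fold change -1.95, SE 0.22, adjusted p = 3.5e-09). Cxcl1 and Mthfd2l lie outside the stretch, in its 200 kb flank.

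**Figure D4:**
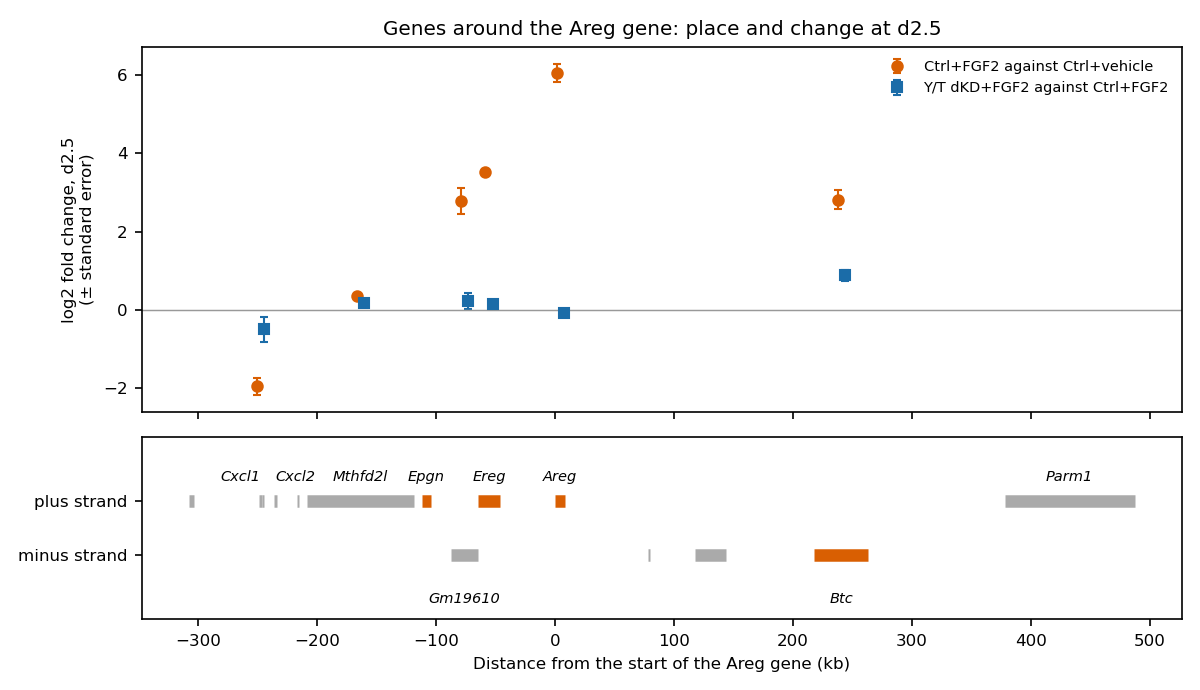
Annotated genes around Areg by distance from the Areg start in kb (x axis), with the genes of the family in orange and the others in grey on the plus or minus strand (lower panel), and the log2 fold change with standard error on d2.5 of the 6 genes tested (upper panel, y axis). With FGF2 the values run from -1.95 for Cxcl1 to 6.06 for Areg, and with the knockdown Btc is at 0.88.

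The genes whose level was most like Areg over the 6 group means (Pearson r on log2(CPM + 1), 12845 genes tested on both days) were Rbpj-ps3 (0.999), 2610507B11Rik (0.999), Dkk2 (0.999), Yars2 (0.998) and Rbpj (0.998). With 6 points and 2 FGF2 groups on d2.5 that stand apart from all others, such values describe one shape only, and no p is given. Rbpj-ps3 is a pseudogene copy of Rbpj, the DNA-binding partner of Notch, so reads may be shared and its level is uncertain. Dkk2, a secreted inhibitor of Wnt signalling, stood at 1.1 CPM with vehicle, 53.4 with FGF2 and 58.0 with FGF2 and the knockdown on d2.5, and at 0.410, 1.02 and 1.06 CPM on d5. Within the family r was 0.972 for Ereg, 0.850 for Hbegf, -0.471 for Errfi1, -0.641 for Tgfa and -0.889 for Erbb2.

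Upstream sequences are shown for Areg and Btc, which were high with FGF2 on d2.5, and for Tgfa and Egfr, which fell with the knockdown on d5. They are the 250 bases before the start site in RefSeq (GRCm38.p6), 5′ to 3′ on the gene's own strand, with a motif in capitals.
Areg (chr5:91139349-91139598, plus strand): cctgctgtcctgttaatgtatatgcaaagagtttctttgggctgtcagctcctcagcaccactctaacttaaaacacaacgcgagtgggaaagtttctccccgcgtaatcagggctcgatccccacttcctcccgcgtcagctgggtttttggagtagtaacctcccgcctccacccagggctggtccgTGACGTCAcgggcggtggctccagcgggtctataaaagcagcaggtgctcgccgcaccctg
Btc (chr5:91402995-91403244, minus strand): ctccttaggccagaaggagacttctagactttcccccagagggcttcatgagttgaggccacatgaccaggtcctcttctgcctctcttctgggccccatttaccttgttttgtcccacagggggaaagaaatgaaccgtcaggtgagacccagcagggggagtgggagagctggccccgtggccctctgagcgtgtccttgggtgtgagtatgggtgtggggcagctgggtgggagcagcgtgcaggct
Tgfa (chr6:86194972-86195221, plus strand): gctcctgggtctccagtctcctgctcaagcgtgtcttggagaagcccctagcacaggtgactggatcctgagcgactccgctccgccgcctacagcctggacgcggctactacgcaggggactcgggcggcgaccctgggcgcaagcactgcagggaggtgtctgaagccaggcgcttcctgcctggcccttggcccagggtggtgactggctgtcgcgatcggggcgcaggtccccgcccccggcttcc
Egfr (chr11:16751953-16752202, plus strand): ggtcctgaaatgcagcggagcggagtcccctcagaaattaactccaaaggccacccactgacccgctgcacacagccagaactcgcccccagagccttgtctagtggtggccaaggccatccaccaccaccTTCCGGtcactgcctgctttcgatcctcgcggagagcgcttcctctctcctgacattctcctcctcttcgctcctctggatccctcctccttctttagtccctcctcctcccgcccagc

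The motifs searched on both strands were AP-1 (TGANTCA), TEAD (GGAATG), the factor family through which Yap and Taz bind DNA, ETS (CCGGAA) and the cAMP response element (TGACGTCA). They were found in 6.75%, 12.6%, 12.0% and 1.55% of all 32851 windows, and 7 of the 10 genes had a window. Areg held a cAMP response element 61 bases before its start, and Errfi1 held the same letters 51 bases before the start of 1 of its windows. Egfr held an ETS motif 119 bases before its start, and Erbb2 a TEAD motif 88 bases before its start, with another in the other Errfi1 window, 65 bases before the start. No motif was found in the windows of Btc, Tgfa and Epgn, which says only that these letters are not in them.

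Other genes of the pathway were taken from a list of 42 genes in 4 groups by role. On d2.5, FGF2 raised 12 of the 36 tested and lowered 16 (33.3% and 44.4%, median log2 fold change -0.07), beside 33.5% and 34.1% of all genes with a median of 0.00. The knockdown raised 6 and lowered 7 on that day (16.7% and 19.4%, beside 10.8% and 13.6% of all genes, median -0.01). On d5, 35 were tested, of which FGF2 raised 10 and lowered 8 (28.6% and 22.9%, beside 23.5% and 23.7%, median 0.00). The knockdown on d5 raised 8 and lowered 7 (22.9% and 20% of them, beside 15.6% and 16.1%, median -0.04). Among the 8 genes listed under shedding, 4 rose and 4 fell with FGF2 on d2.5. Those that fell were all of the ADAM family, with log2 fold changes of -0.64 for Adam10, -0.96 for Adam12, -0.50 for Adam17 and -0.46 for Adam19. Those that rose were Adam9 (0.26), Rhbdf1 (0.29), Rhbdf2 (0.91) and Timp3 (0.93).

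The largest change in the list was that of Lrig1, which encodes a membrane protein that promotes the degradation of ErbB receptors. With FGF2 it rose from 5.78 ± 0.429 to 46.6 ± 0.224 CPM on d2.5 (log2 fold change 3.0, SE 0.08, adjusted p = 6.2e-25), and from 15.4 ± 3.13 to 33.4 ± 0.0274 CPM on d5 (log2 fold change 1.12, SE 0.10, adjusted p = 8.2e-08). The knockdown lowered Lrig1 to 21.7 ± 1.51 CPM on d5 (log2 fold change -0.63, SE 0.09, adjusted p = 5.8e-05) and left it at 44.3 ± 0.688 CPM on d2.5 (adjusted p = 0.277). The receptor regulators of the list did not move one way with FGF2. Of 10 tested, 3 rose and 5 fell on d2.5, and 3 rose and 3 fell on d5.

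Neuregulin 1 (Nrg1), a ligand of ErbB3 and ErbB4, rose with FGF2 on d2.5 from 6.41 ± 0.816 to 19.3 ± 0.429 CPM (log2 fold change 1.57, SE 0.10, adjusted p = 5.7e-15) and stood at 5.17 ± 0.123 and 5.16 ± 0.737 CPM on d5. Erbb4 and Nrg3 had 0 counts in all libraries. The signal transducer Stat3 fell with FGF2 on d2.5 from 197 ± 3.0 to 93.5 ± 0.453 CPM (log2 fold change -1.09, SE 0.04, adjusted p = 3.3e-21), and Vav2 from 50.9 ± 1.01 to 25.4 ± 1.12 CPM (log2 fold change -1.01, SE 0.06, adjusted p = 5.5e-16). Its relative Vav3 rose in the knockdown on d5 from 4.85 ± 0.261 to 13.1 ± 1.38 CPM (log2 fold change 1.43, SE 0.16, adjusted p = 1.7e-06). Egf itself stood at 0.923 to 1.54 CPM as a group mean and was called in neither the FGF2 nor the knockdown comparison of either day.

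**Figure D5:**
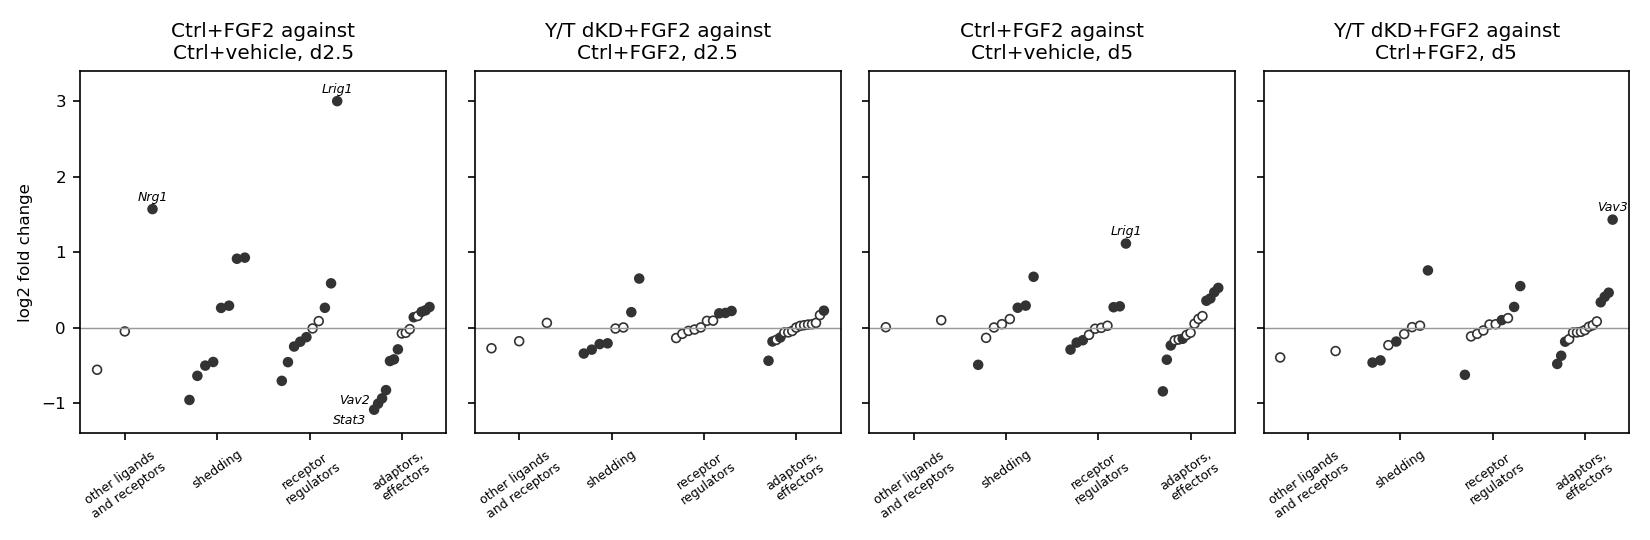
log2 fold change (y axis) of the tested genes of the pathway list by role (x axis), sorted within each role, in the 4 comparisons named above the panels. Filled points are called at an adjusted p under 0.05 and named genes changed by at least 1 on the log2 scale, with Lrig1 at 3.0 highest and Stat3 at -1.09 lowest.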

How the data were processed

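Poly(A) RNA libraries of O9-1 cells were made with the SMARTER mRNA-Seq kit. For each of 18 libraries the authors deposited a table of raw counts, not normalized, laid out as STAR writes them. The submitters' processing notes name FastQC, STAR, Picard, featureCounts and mm10. Versions and the annotation are not given in the sources used here. The reverse-strand column was used (96.0% to 96.6% of stranded counts). Entries naming no gene (27.0% to 34.4% of a library) stayed out of all steps. Of 55335 identifiers, 55154 matched GENCODE M21, the source of names, coordinates and exon lengths. Reads with several places were not counted, which lowers near-identical genes.

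The quasi-likelihood test of edgeR 4.0.16 (R 4.3.3) was run with TMM scaling and filterByExpr in a fit of the 9 libraries of each day, and for differences between days in a fit of all 18. P-values were adjusted over all genes by the Benjamini-Hochberg method. The SE was taken as the size of the log2 fold change over the root of F. DESeq2 1.42.0, other scalings and filters, unstranded counts, fits of 2 groups or of all libraries, a replicate block and leaving out each library were the alternatives. The fit was tested on simulated data. Intervals of count ratios are exact (Clopper-Pearson). Depth was 10377151 to 14698525 gene counts per library, and values of few reads carry wide counting intervals.

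Named genes were all 10 genes of the family, genes of the pathway list called with a log2 fold change of at least 1 in size (up to 8 in a comparison), the 5 most like Areg, tested genes within 200 kb of the chromosome 5 cluster, and Yap1 and Wwtr1. The members and lists were chosen with earlier results of these data known. No further columns of other samples were present.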

Additional observations from a re-analysis of the deposited data

Results flagged for a closer look

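The effects below differed between d2.5 and d5 in the fit of all 18 libraries (edgeR, adjusted p under 0.05), where day is also the labelled batch. Each value is the log2 fold change on d5 minus that on d2.5. For FGF2 against vehicle the difference was -2.22 for Ereg, -2.46 for Hbegf, -2.37 for Btc and -0.40 for Errfi1, and 0.58 for Erbb2 and 3.74 for Erbb3. For the knockdown with FGF2 it was -1.08 for Tgfa, -1.37 for Btc and 0.45 for Errfi1. Hbegf and Erbb2 were called in opposite directions by the 2 days' own fits, whereas Erbb3 and Btc did not pass the low-count filter on d5, where their groups held 1 to 16 and 14 to 20 reads. In the fit of all libraries Btc is present through its high d2.5 libraries with FGF2, and Erbb3 through its d2.5 libraries. The FGF2 differences of both genes are thus descriptions only. The knockdown difference of Btc rests on the same few d5 reads and is uncertain.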

How the results depend on the processing

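Groups of 3 and, for Areg, Btc, Epgn, Egfr and Erbb3, few reads on 1 or both days limit these results. Of 1227 values of single genes under the alternatives, 1170 kept direction and side of the threshold, 38 lost the call, 4 gained one, 10 changed sign and 5 without a test moved. In the knockdown on d2.5, the genes called higher fell from 2 to 1 with DESeq2, with at least 10 counts in every library, with all 18 libraries in 1 fit and at an adjusted p under 0.01, and those called lower from 3 to 1 with DESeq2 and at 0.01. On d5, the gene called lower with FGF2 went to 0 with DESeq2, and those called higher in the knockdown from 2 to 1 with DESeq2 and at 0.01. For the differences between days, the 2 higher with FGF2 became 1 with at least 10 counts, and the 2 lower in the knockdown became 1 with DESeq2, without a filter, with at least 10 counts and at 0.01. The cause was not tested.

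Leaving out 1 library gave 1 to 2 genes called higher and 1 to 3 lower in the knockdown on d2.5 and 1 to 2 higher on d5. It gave 2 to 3 higher for the FGF2 difference between days, and 1 to 2 higher and 1 to 2 lower for the knockdown difference. The other 10 counts kept one value each (5 and 2 for FGF2 on d2.5, 4 and 1 on d5, 3 lower for the knockdown on d5, 4 lower for the FGF2 difference, and 4 and 2 on d2.5 and 2 and 3 on d5 for the knockdown against vehicle). Sign changes came only in these fits and only in values that were not called, whose ranges were, on d2.5, -0.12 to 0.028 for Areg, -0.19 to 0.060 for Erbb3 and -0.082 to 0.012 for Errfi1 in the knockdown and -0.036 to 0.16 for Tgfa against vehicle, and -3.23 to 3.75 for the knockdown difference of Areg.

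Same-numbered libraries had correlations of -0.09 to 0.05 on d2.5 and -0.08 to 0.21 on d5. Between Ctrl+vehicle and Ctrl+FGF2 on d5, replicates 1 and 2 had 0.19 and 0.21 with their own number, and -0.18 and -0.20 when crossed. Pairing by number was thus not seen on d2.5 and is not settled for this d5 comparison. A replicate block lowered 1 count, the genes with a lower knockdown effect on d5 than on d2.5, from 2 to 1 (Btc, adjusted p = 0.053), and changed none of the other 15 counts.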
